A study of Mus musculus with 8 samples.

Results

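The 10 genes described here are the PGC-1 coactivators and the transcription factors through which they drive mitochondrial biogenesis. They were taken by gene symbol from the 14012 genes of the deposited mouse table. They comprise 3 coactivators (Ppargc1a, Ppargc1b and Pprc1), the estrogen-related receptors Esrra and Esrrg, the nuclear respiratory factors Nrf1 and Gabpa, the lipid-sensing receptors Ppara and Ppard, and the corepressor Nrip1. All 10 were found in the table.

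RNA was sequenced from the quadriceps femoris (QF) muscle of 4 Grpel1 skm-/- mice and 4 Grpel1 flox/flox control mice. GRPEL1 is the nucleotide exchange factor of the mitochondrial chaperone mtHSP70, which pulls proteins into the mitochondrial matrix and folds them. The knockout mice carried floxed Grpel1 alleles and HSA-Cre, a tamoxifen-inducible Cre recombinase driven by the human alpha-skeletal actin promoter, so that deletion was directed to muscle fibres and other cells of the muscle kept the gene. Tamoxifen was given from 5 weeks of age in 5 daily injections, and the time from injection to sampling for these libraries was not given in the sources used here. The floxed alleles were shared by both groups. The labels give no treatment for any of the mice, and the study calls its flox/flox littermates untreated in its account of body weight. Its weight curves, however, name flox/flox mice with Cre and no tamoxifen, and others with tamoxifen and no Cre. The study does not say which kind the sequenced controls were. If the sequenced controls had no tamoxifen or no Cre, effects of either cannot be told apart from those of the deletion. Each library came from its own animal. Total counts ranged from 16017565 to 20361144 per library, and the members had between 65 and 2755 counts in a library.

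PGC-1 proteins do not bind DNA themselves. They are recruited by nuclear receptors and respiratory factors to the promoters of genes for oxidative phosphorylation, fatty acid oxidation and mitochondrial DNA maintenance, and they bring in histone acetyltransferases and the Mediator complex. In skeletal muscle, PGC-1 alpha is induced by contraction and fasting through calcium, AMPK, p38 and cAMP signalling, and together with the estrogen-related receptors it sets the oxidative capacity of fibres.

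Promoter stretches of Esrrg, Esrra and Ppargc1a are shown as examples. These genes are among the members called below, and each stretch holds a motif of a muscle or stress signal. A link between the motifs and the differences was not tested. RefSeq promoter windows on GRCm38.p6 were matched for 9 of the 10 members, in 14 windows, and were searched over the 250 bases before each start on both strands for 9 motifs. Positions are counted back from the annotated RefSeq start. For Esrrg the GENCODE start lies further upstream, at 187608791 on chromosome 1, so that the stretch shown falls within the GENCODE span of the gene. The Esrrg stretch lies at chr1:187608974-187609003 on the plus strand, bases -32 to -3, and the capitals mark a MEF2 motif (CTA, 4 bases of any kind, then TAG), which 3.2% of all 32851 windows hold. The Ppargc1a window lies at chr5:51567727-51567975 on the minus strand, and its capitals mark a cAMP response core (TGACG, here as its reverse complement) at -49 to -45, which 17.8% of windows hold. The Esrra window lies at chr19:6921814-6922058 on the minus strand, and its capitals mark a composite ATF4-C/EBP motif (TGATGNAA) at -227 to -220, which 3.45% of windows hold.
Esrrg: taaaactttgCTATTTATAGtctacgcccg
Ppargc1a: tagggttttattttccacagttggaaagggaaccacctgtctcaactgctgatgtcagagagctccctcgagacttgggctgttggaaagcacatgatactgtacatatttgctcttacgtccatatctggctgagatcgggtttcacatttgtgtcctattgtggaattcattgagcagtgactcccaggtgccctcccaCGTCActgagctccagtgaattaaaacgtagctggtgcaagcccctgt
Esrra: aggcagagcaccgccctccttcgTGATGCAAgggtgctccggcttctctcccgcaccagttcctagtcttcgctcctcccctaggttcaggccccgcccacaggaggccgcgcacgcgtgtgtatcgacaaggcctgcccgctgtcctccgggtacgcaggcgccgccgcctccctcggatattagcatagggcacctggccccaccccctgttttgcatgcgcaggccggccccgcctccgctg

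Among the other members, the Gabpa window held the ETS motif that GABP itself binds (CCGGAAG, at -93 to -87, in 6.91% of windows). The Ppara window held an NRF-1 motif (GCGCA, any base, then GCGC, at -31 to -22, in 3.74%) and the cAMP core at -222 to -218. The Pprc1 window held a nuclear receptor core (AGGTCA, at -113 to -108, in 14% of windows), and the Nrip1 window the ATF4-C/EBP motif at -159 to -152. The motifs of Gabpa, Ppara and Pprc1 lie downstream of the GENCODE starts of these genes (84834925, 85734983 and 46044886), within their GENCODE spans. The estrogen-related receptor element (TNAAGGTCA, 1.14% of windows, which contains AGGTCA), the full cAMP element (TGACGTCA, 1.55%, which contains the core) and the E-box (CACGTG, 6.02%) matched in no window of a member. Of the members' windows, 7 of 14 held none of the 9 motifs. These are matches of letters, and binding was not measured.

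The count of the targeted gene did not separate the groups. Grpel1 (GRCm38 chromosome 5, 36465185-36474077, as deposited, like the positions that follow) had 69.6, 71.2, 68.8 and 64.1 CPM (counts scaled to a common library size, here after TMM normalisation) in control libraries 1 to 4 and 69.1, 71.9, 60.3 and 59.9 in the libraries labelled knockout 1 to 4. The groups overlapped, with a log2 fold change of -0.07 ± 0.08 (SE) and an edgeR adjusted p of 0.49. The gene count sums over all exons and does not separate transcripts with and without the floxed part, and 11.7% of its exon bases are shared with Tada2b on the opposite strand. The groups below therefore rest on the labels, and "knockout" names the libraries labelled so. At the protein level, the study reported less GRPEL1 in QF muscle of Grpel1 skm-/- mice by immunoblot and by immunostaining. Scaling matters in this series, because TMM factors were 0.75 to 0.84 in control and 1.19 to 1.33 in knockout libraries. At an adjusted p under 0.01, 2962 genes were lower and 3303 higher in knockout, whereas scaling by library totals alone gave 873 lower and 8498 higher and moved the median over all genes from 0.07 to 0.73. The summed CPM of 7 myofibre markers was 186906 to 246894 in control and 52934 to 74362 in knockout, all 7 lower. Fewer fibres, smaller fibres and less RNA of these genes per fibre cannot be told apart in bulk muscle.

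Of the 10 members, 3 were lower in knockout (Ppargc1a, Esrra and Ppard), 2 were higher (Pprc1 and Esrrg) and 5 did not pass the test. This is 50% of the members, against 44.7% of all genes called in either direction (21.1% lower and 23.6% higher). The share of members called was thus near that of the whole table. The median log2 fold change of the members was 0.10, against 0.07 for all genes. CPM of the 2 groups did not overlap for 5 members, 2 lower (Esrra and Ppard) and 3 higher (Pprc1, Esrrg and Nrf1), which is also near the 53.4% of all genes (24.4% lower and 29% higher). The coactivators and the estrogen-related receptors each held a gene that fell and a gene that rose (with library totals alone Ppargc1a was at a log2 fold change of 0.13), as the plot of each member by library shows.

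**Figure D1:**
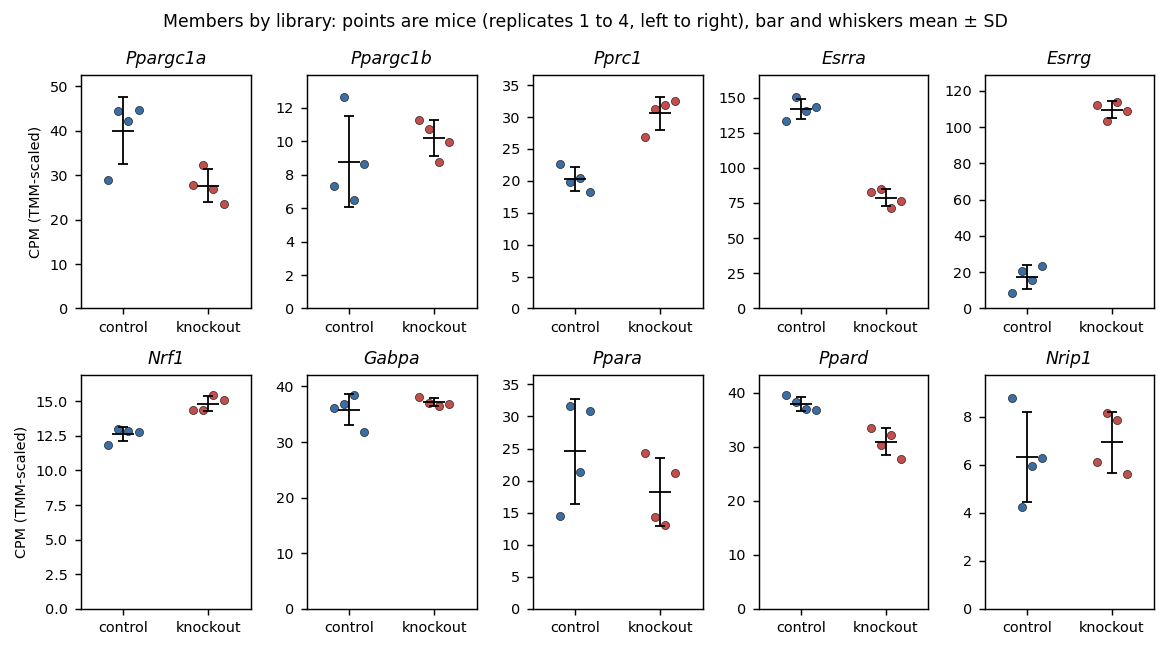
CPM (TMM-scaled, linear axes from 0) of the 10 members in each library, with points for the 4 control and 4 knockout mice and bars for the mean ± SD. Esrrg stands at 103 to 114 CPM in knockout against 8.56 to 23.5 in control, Esrra and Ppard lie lower in every knockout library, and control 1 lies apart from the other controls for Ppargc1a.

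Among the coactivators, Ppargc1a fell, Pprc1 rose and Ppargc1b did not pass the test. Ppargc1a encodes PGC-1 alpha, the exercise-responsive coactivator (chromosome 5, 51454249-51567725). Its level was 28.9, 44.5, 42.2 and 44.7 CPM in control libraries 1 to 4 and 27.8, 32.4, 26.8 and 23.5 CPM in knockout libraries 1 to 4. Control 1 lay among the knockout libraries, whereas the other 3 controls lay above all of them, so that the groups overlapped. The means were 40.1 ± 7.51 (SD, n = 4) and 27.6 ± 3.67 (SD, n = 4), a log2 fold change of -0.54 ± 0.14 (SE) with an edgeR adjusted p of 0.0090. This call lies close to the threshold: it was kept when control 1 or knockout 2 was left out and lost, with an edgeR adjusted p of up to 0.029, when any of the other 6 libraries was. It was also lost with upper-quartile scaling (edgeR adjusted p = 0.014) and with the adipocyte markers as a covariate (0.031), where the log2 fold changes were -0.51 and -0.50, and with library totals alone the log2 fold change was 0.13.

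Pprc1 encodes PRC, the growth-regulated member of the family, which acts with NRF-1 on respiratory genes (chromosome 19, 46056539-46072909). It had 22.6, 19.8, 20.5 and 18.2 CPM in control and 26.8, 31.3, 31.8 and 32.6 CPM in knockout libraries. The knockout libraries all lay above the controls. The means of 20.3 ± 1.83 and 30.6 ± 2.59 (SD, n = 4 each) gave a log2 fold change of 0.60 ± 0.09 (SE), with an edgeR adjusted p of 3.0e-04, and the call held without any one of the 8 libraries.

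Ppargc1b encodes PGC-1 beta, a coactivator linked to basal mitochondrial content and oxidative fibres (chromosome 18, 61298136-61400431). Its level was low and scattered among the controls, at 7.35, 12.6, 6.51 and 8.63 CPM, and was 11.3, 10.8, 8.79 and 9.98 CPM in knockout. Control 2 was above all knockout libraries and the other 3 controls were below them, so that the groups overlapped (log2 fold change 0.21 ± 0.19 SE, edgeR adjusted p = 0.36). The value was 0.09 without control 3 and 0.44 without control 2 (edgeR adjusted p = 0.69 and 0.027).

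Compared within each library, which needs no scaling between libraries, the ratios of Pprc1 and Ppargc1b to Ppargc1a did not overlap between the groups. The log2 ratio of Pprc1 to Ppargc1a counts was -0.35, -1.16, -1.04 and -1.29 in control and -0.05, -0.05, 0.25 and 0.47 in knockout libraries, without overlap. The difference of 1.12 is a 2.17-fold higher ratio in knockout (exact two-sided permutation p = 0.0286, which is the smallest that 4 against 4 allows, and 0.0571 adjusted over the 6 ratios tested). The log2 ratio of Ppargc1b to Ppargc1a was likewise higher in every knockout library, from -1.61 to -1.24 against -2.69 to -1.81, a difference of 0.78 with the same exact p of 0.0286 and 0.0571 after adjustment. Neither passes 0.05 once adjusted, and both ratios share the Ppargc1a count. Per kilobase of exon, Ppargc1a made up 49.0% ± 5.88 of the summed RPKM of the 3 coactivators in control and 32.6% ± 3.01 in knockout (SD, n = 4), and Pprc1 31.8% ± 6.13 and 45.6% ± 4.07, so that Pprc1 took the place of Ppargc1a as the coactivator with the highest level per length. Ppargc1b stood at 19.2% ± 4.11 and 21.8% ± 2.36.

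**Figure D2:**
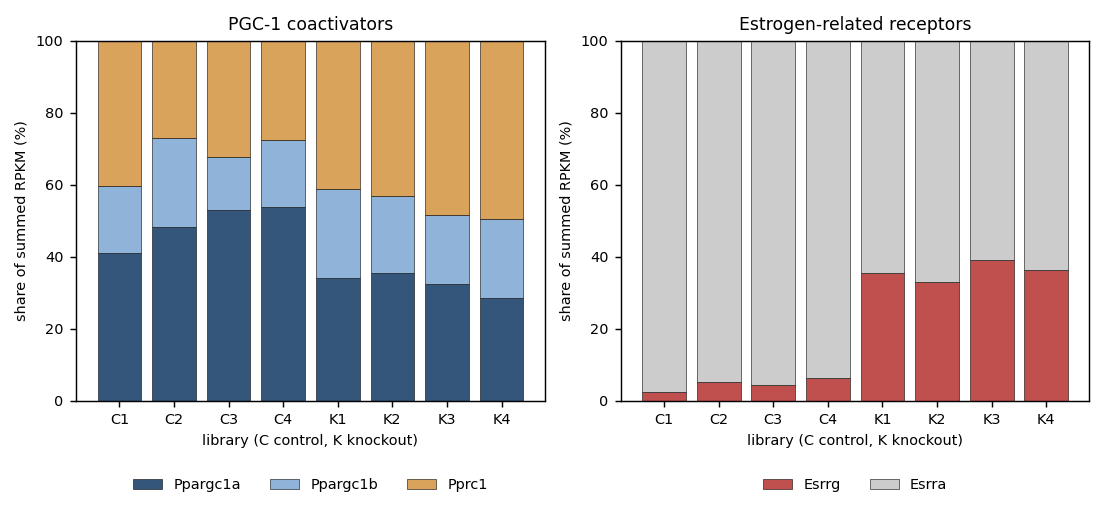
Share of the summed RPKM (%, CPM per kilobase of exon) taken by each PGC-1 coactivator (left) and each of the 2 estrogen-related receptors (right) in the 4 control (C1 to C4) and 4 knockout (K1 to K4) libraries. Esrrg takes 2.51 to 6.18% of the receptor sum in control and 32.9 to 38.9% in knockout, and Ppargc1a takes 41.0 to 53.7% of the coactivator sum in control and 28.5 to 35.6% in knockout.

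The estrogen-related receptors showed the widest divergence. These orphan receptors share a DNA element and need PGC-1 coactivators for much of their activity, and ERR alpha is itself a PGC-1 alpha target. Esrra, the predominant form (chromosome 19, 6910977-6921808), had 133.6, 150.1, 140.3 and 143.5 CPM in control and 82.6, 84.6, 71.7 and 76.6 CPM in knockout libraries. All knockout libraries were far below all controls. The means were 141.9 ± 6.85 and 78.9 ± 5.89 (SD, n = 4), with a log2 fold change of -0.85 ± 0.07 (SE) and an edgeR adjusted p of 7.0e-06. The call held in every fit with 1 library left out (log2 fold change -0.90 to -0.82), but with library totals alone the value was -0.18 and did not pass (edgeR adjusted p = 0.11). Only 1.66% of Esrra exon bases in the GENCODE annotation are shared with Trmt112, the neighbour on the opposite strand.

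Esrrg encodes ERR gamma, the form associated with oxidative, vascularised muscle (chromosome 1, 187609006-188214884), and its MEF2 motif is printed above. It had 8.56, 20.8, 15.7 and 23.5 CPM in control libraries, from 106, 318, 219 and 373 counts, and 112.3, 103.2, 113.7 and 108.9 CPM in knockout libraries, from 2694, 2254, 2755 and 2740 counts. The knockout libraries were tightly grouped and each was over 4 times the highest control, while the controls varied, with control 1 the lowest. The mean rose from 17.1 ± 6.58 to 109.5 ± 4.68 CPM (SD, n = 4), 6.35-fold, with a log2 fold change of 2.67 ± 0.24 (SE) and an edgeR adjusted p of 9.5e-06. A rise of at least 2-fold past the test was seen in 9.83% of all genes, and a log2 fold change at least as large as that of Esrrg in 2.01% (282 of 14012). Over the 16 alternative fits the value ranged from 2.45 to 3.32, and the adjusted p reached 7.4e-05 at most. Antisense genes annotated within the Esrrg span share no exon base with it.

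Within a library, the log2 ratio of Esrrg to Esrra counts was -3.96, -2.85, -3.16 and -2.61 in control and 0.44, 0.29, 0.67 and 0.51 in knockout. Counts of Esrra exceeded those of Esrrg in every control library and the reverse held in every knockout library. The ratio was 12.3-fold higher in knockout (difference of the log2 ratio 3.62, exact two-sided permutation p = 0.0286 and 0.0571 adjusted over 6). Per length, Esrrg supplied 4.56% ± 1.57 of the RPKM of the pair in control and 35.9% ± 2.5 in knockout (SD, n = 4). With the deposited exon widths (2242 bases for Esrra and 5580 for Esrrg), Esrra still had the higher level per length in all 8 libraries. GENCODE exons cover 4387 bases of Esrra and 6208 of Esrrg, and the order with these widths was not tested.

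The nuclear respiratory factors differed little. Nrf1, which drives respiratory chain and Tfam promoters (chromosome 6, 30047988-30153458), had 11.9, 13.0, 12.9 and 12.8 CPM in control and 14.4, 14.4, 15.5 and 15.1 CPM in knockout libraries. The groups did not overlap, but the difference was small: the log2 fold change of 0.23 ± 0.08 (SE) had an edgeR adjusted p of 0.026 and did not pass 0.01, and only the scaling by library totals made it do so. Gabpa, the DNA-binding subunit of NRF-2 (chromosome 16, 84835124-84863779), had 36.1, 36.9, 38.4 and 31.9 CPM in control and 38.2, 37.0, 36.5 and 36.8 CPM in knockout. The knockout libraries lay within the range of the controls (log2 fold change 0.05 ± 0.07 SE, edgeR adjusted p = 0.54), and 6.98% of Gabpa exon bases are shared with Atp5j on the opposite strand. The ratio of Gabpa to Nrf1 within a library overlapped between the groups (difference of the log2 ratio -0.17, exact permutation p = 0.0857 and 0.129 adjusted over 6).

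Of the PPARs, Ppard fell slightly and Ppara did not pass the test. Ppard encodes PPAR delta, the fatty acid sensor of oxidative muscle (chromosome 17, 28232754-28301469). It had 39.5, 38.4, 37.1 and 36.7 CPM in control and 33.5, 30.4, 32.2 and 27.7 CPM in knockout, with every knockout library below every control. The log2 fold change was -0.29 ± 0.07 (SE) with an edgeR adjusted p of 0.0061. With library totals alone the value turned to 0.37 and passed as higher (edgeR adjusted p = 7.3e-04). The call as lower was kept in 3 of the 8 fits without 1 library (without control 4, knockout 1 or knockout 3) and lost in 5, where the edgeR adjusted p reached 0.018. It was also lost with the adipocyte markers as a covariate (edgeR adjusted p = 0.017), at a log2 fold change of -0.30.

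Ppara encodes PPAR alpha, the fasting-responsive receptor of fat oxidation (chromosome 15, 85735564-85806851). Its values of 14.5, 31.7, 21.4 and 30.8 CPM in control and 24.2, 14.3, 13.1 and 21.1 CPM in knockout were widely spread in both groups and overlapped. With a log2 fold change of -0.44 ± 0.27 (SE) and an edgeR adjusted p of 0.18, no difference was detectable among these mice. The Ppard to Ppara ratio differed by 0.12 on the log2 scale (exact permutation p = 0.77).

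Nrip1 encodes RIP140, a corepressor that opposes PGC-1 alpha on nuclear receptors (chromosome 16, 76290862-76373049). It was the lowest of the members per length. Its level was 8.81, 4.26, 5.94 and 6.30 CPM in control and 6.13, 8.15, 7.88 and 5.60 CPM in knockout, overlapping (log2 fold change 0.14 ± 0.21 SE, edgeR adjusted p = 0.59). Relative to Ppargc1a within a library, its log2 ratio was 0.68 higher in knockout, with overlap (exact permutation p = 0.143 and 0.171 adjusted over 6). This difference was 0.45 without control 2 and 1.01 without control 1.

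Control 1 had the lowest control values of Ppargc1a, Esrra, Esrrg, Nrf1 and Ppara and the highest of Pprc1, Ppard and Nrip1. Among the knockout libraries, Ppara and Nrip1 varied most in proportion to their means. Expressed as RPKM, which allows levels of different genes to be set side by side, the order in control was Esrra (63.3 ± 3.06 SD), Ppard (11.8 ± 0.394), Gabpa (7.19 ± 0.563), Ppargc1a (6.08 ± 1.14), Pprc1 (3.87 ± 0.348), Ppara (3.27 ± 1.09), Esrrg (3.07 ± 1.18), Ppargc1b (2.40 ± 0.742), Nrf1 (2.37 ± 0.0976) and Nrip1 (1.40 ± 0.415). The ranges of Gabpa and Ppargc1a overlapped, as did those of each neighbouring pair from Pprc1 down to Nrf1. Orders of RPKM rest on the deposited exon widths, and that of Esrra is narrower than its GENCODE exons. In knockout, Esrrg moved from the seventh place to the second, at 19.6 ± 0.838 RPKM, behind Esrra at 35.2 ± 2.63. Ppard (9.62 ± 0.788), Gabpa (7.45 ± 0.144), Pprc1 (5.84 ± 0.494) and Ppargc1a (4.19 ± 0.557) followed without overlap, and the ranges of neighbours overlapped from Ppargc1b (2.79 ± 0.298) through Nrf1 (2.78 ± 0.101) and Ppara (2.42 ± 0.711) to Nrip1 (1.53 ± 0.279).

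**Figure D3:**
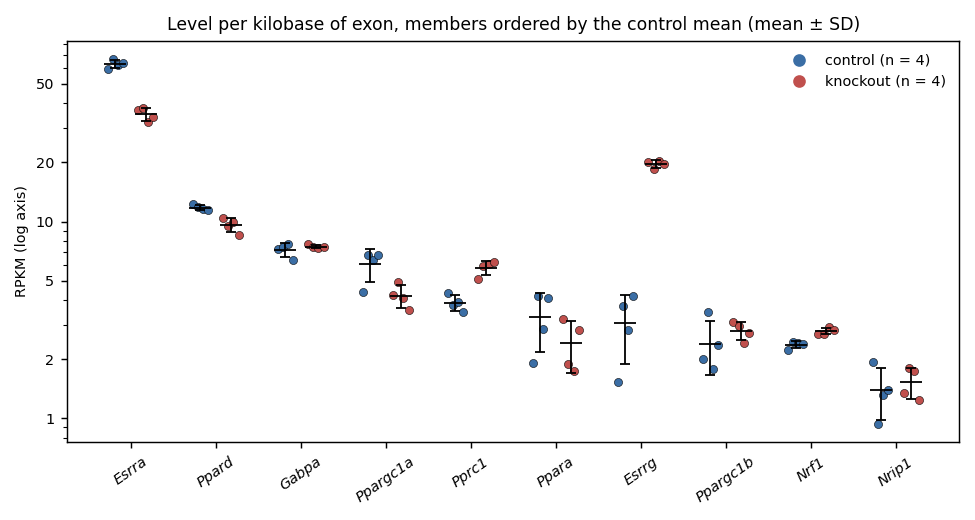
RPKM of the 10 members (log axis, TMM-scaled CPM per kilobase of exon) in each of the 4 control and 4 knockout libraries, with bars for the mean ± SD and genes ordered by the control mean. With the deposited exon widths, Esrra leads in both groups, and Esrrg rises from 3.07 to 19.6 RPKM, above every member but Esrra.

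The genes whose profile over the 8 libraries was most like that of Ppargc1a were found by the root mean square difference of centred log2 CPM among 9789 genes with a mean of at least 5 CPM. They were Sox17, a transcription factor of endothelial cells (0.08), Txndc16, a thioredoxin-domain protein (0.10), and Plod1, a collagen lysyl hydroxylase (0.10). Sox17 had 9.21, 13.5, 12.5 and 13.0 CPM in control and 7.96, 9.98, 9.04 and 7.71 CPM in knockout, sharing the low value of control 1. The likeness is a description, since all 8 libraries enter it and the difference between groups makes up part of it. Among the members, Esrra came closest, at rank 733, followed by Ppard at rank 1209. Endothelial markers were lower in knockout, 5 of 6 past the test, with a summed CPM of 283 to 422 in control, lowest in control 1, and 205 to 231 in knockout, and their part in the Ppargc1a values was not tested.

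Of 30 partners and coregulators, 12 were lower in knockout, 4 higher and 14 not past the test (median log2 fold change -0.21, against 0.07 for all genes), beside 21.1% of all genes lower and 23.6% higher. With library totals alone this turned to 5 lower and 19 higher, where 873 of all genes were lower and 8498 higher. Perm1, a muscle regulator induced by PGC-1 and the estrogen-related receptors, fell from 266.4 ± 23.3 to 71.2 ± 5.85 CPM (log2 fold change -1.90 ± 0.09 SE, edgeR adjusted p = 2.3e-07). Rxrg, the retinoid X receptor partner of the PPARs that is enriched in muscle, fell from 78.5 ± 15.4 to 16.9 ± 3.8 CPM (log2 fold change -2.22), and Lpin1, a phosphatidate phosphatase that also coactivates PPAR alpha, fell by 1.77 on the log2 scale. These 3 also fell with library totals alone. All 7 myofibre markers were lower in the same libraries, with a median log2 fold change of -1.53, and their part in the values of these muscle-enriched partners was not tested.

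In the other direction, Sik1, a cAMP-induced kinase, rose from 17.7 ± 1.78 to 61.4 ± 8.39 CPM (log2 fold change 1.79). Sirt1, the deacetylase that activates PGC-1 alpha, rose by 0.64, Mybbp1a, a repressor of PGC-1 alpha, by 0.60, and Gabpb1, which supplies the activation domain to Gabpa, by 0.58 (edgeR adjusted p = 0.0014). The members of this list that rose thus include both activators and repressors. Pparg, the fat cell PPAR, had 8.64, 9.23, 4.15 and 14.2 CPM in control and 30.4, 23.1, 8.38 and 17.5 CPM in knockout, which overlap (edgeR adjusted p = 0.036). Adipocyte markers summed to 248.9 to 1497 CPM in control and 712 to 2591 in knockout, none of the 7 past the test, with the lowest Pparg in control 3 and knockout 3, where these markers were also lowest. With the mean of these markers as a covariate, the log2 fold change of Pparg went from 1.13 to 0.51 (edgeR adjusted p = 0.16). The covariate comes from the same libraries, and the part of fat cells in the Pparg values was not tested.

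Of 34 signalling genes that act on Ppargc1a, 21 were lower, 6 higher and 7 not past the test, against 21.1% lower and 23.6% higher of all genes. The median log2 fold change of the list was -0.64. With library totals alone, 11 were lower and 14 higher, beside 873 and 8498 of all genes. Map2k6, the kinase upstream of p38, fell from 48.8 ± 8.88 to 4.92 ± 1.25 CPM (log2 fold change -3.31 ± 0.19 SE, edgeR adjusted p = 7.0e-07), and Mapk14, p38 alpha itself, by 1.75. Camk2a, a calcium-dependent kinase, fell by 1.90. The beta and alpha subunits of AMPK moved apart. Prkab2 fell from 686.1 ± 169 to 124.9 ± 29.8 CPM and its paralog Prkab1 rose from 9.71 ± 0.547 to 20.1 ± 1.42 CPM. The catalytic subunits showed the same, with a log2 fold change of -1.02 for Prkaa2, the predominant form of muscle, and 0.50 for Prkaa1. The gamma subunits Prkag1 (-0.36), Prkag2 (-0.75) and Prkag3 (-1.73) all fell. Fnip2, which binds AMPK together with folliculin, rose by 0.75, whereas its paralog Fnip1 fell by 1.11. Mapk14, Prkaa2, the gamma subunits and Fnip1 were named after their values were seen. All 7 myofibre markers fell in the same libraries, and the part of that fall in these values was not tested.

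Of 25 NRF-1 and GABP targets, 13 were lower, 2 higher and 10 not past the test, against 21.1% lower and 23.6% higher of all genes. Their median log2 fold change was -0.29. With library totals alone 1 was lower and 15 higher, beside 873 and 8498 of the 14012 genes. Tfam, which packages and transcribes mitochondrial DNA, had 55.1, 50.5, 62.3 and 54.2 CPM in control and 41.4, 37.6, 43.5 and 45.0 CPM in knockout, without overlap. Its log2 fold change was -0.41 ± 0.08 (SE, edgeR adjusted p = 0.0021) and was past the threshold in all 8 fits without 1 library. With library totals alone it became 0.26 and passed as higher (edgeR adjusted p = 0.0079). Polrmt, the mitochondrial RNA polymerase, had a log2 fold change of -0.32 (edgeR adjusted p = 0.0020), which turned to 0.34 and passed as higher with library totals alone (edgeR adjusted p = 0.0027). The transcription factors Tfb2m (-0.23, edgeR adjusted p = 0.019) and Tfb1m (0.07, edgeR adjusted p = 0.72) did not pass.

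Cycs, which encodes cytochrome c and is the classic NRF-1 target, fell from 240.6 ± 22.6 to 123.6 ± 9.79 CPM (log2 fold change -0.96 ± 0.09 SE, edgeR adjusted p = 1.1e-05), also with library totals alone (-0.29). Alas1, the first enzyme of haem synthesis, fell by 0.87, and Atp5g1, a subunit of the ATP synthase ring, by 0.74. With library totals alone neither passed, at -0.20 for Alas1 (edgeR adjusted p = 0.22) and -0.07 for Atp5g1 (edgeR adjusted p = 0.36). The 2 that rose were Mterf3, a negative regulator of mitochondrial transcription (0.54, edgeR adjusted p = 0.0017), and Ssbp1, the mitochondrial single-strand DNA-binding protein (0.28, edgeR adjusted p = 0.0046, lost in 6 of 8 fits without 1 library). Nrf1 and Gabpa themselves did not pass the test, as given above.

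Targets of the estrogen-related receptors and PPARs were lower in 25 of 38 genes, higher in 3 and not past the test in 10, with a median log2 fold change of -0.56. Of all genes, 21.1% were lower and 23.6% higher. With library totals alone 9 targets were lower and 8 higher, beside 873 and 8498 of all genes. The list holds genes of the muscle fibre, and the 7 myofibre markers fell in the same libraries (median -1.53), whose part in these values was not tested. Ucp3, a mitochondrial carrier induced by fasting, fell from 399.4 ± 97.8 to 46.1 ± 24.3 CPM (log2 fold change -3.11 ± 0.38 SE, edgeR adjusted p = 7.2e-05). Pdk4, the kinase that shuts pyruvate dehydrogenase during fasting, had 1569, 2680, 2480 and 2002 CPM in control and 533.8, 88.1, 446.4 and 170.4 CPM in knockout libraries. Every knockout library was below every control, with a wide spread among the knockout mice (log2 fold change -2.82 ± 0.50 SE, edgeR adjusted p = 8.4e-04). Ckmt2, the mitochondrial creatine kinase, fell by 2.27.

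Among those that rose were Acot2, a mitochondrial acyl-CoA thioesterase, from 21.6 ± 7.14 to 110.6 ± 38.0 CPM (log2 fold change 2.36 ± 0.29 SE, edgeR adjusted p = 7.9e-05), and Kyat3, a kynurenine aminotransferase (0.87, edgeR adjusted p = 5.1e-04). Both were past the threshold in all 8 fits without 1 library and with library totals alone.

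**Figure D4:**
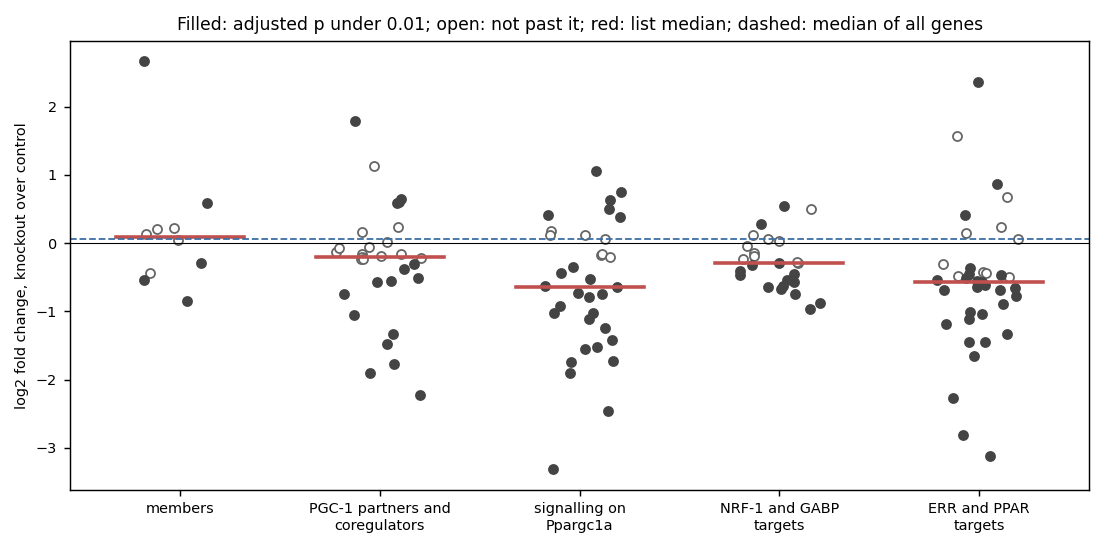
Log2 fold change (knockout over control, edgeR, TMM scaling) of every gene in 5 groups: the 10 members, 30 partners and coregulators, 34 signalling genes, 25 NRF-1 and GABP targets and 38 ERR and PPAR targets. Filled points pass an adjusted p under 0.01, red bars are list medians (0.10, -0.21, -0.64, -0.29 and -0.56) and the dashed line is the median of all genes (0.07); library totals alone raise that median to 0.73.

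The members were also set against the median of all genes in each fit. Relative to that median, the log2 fold change over the 16 alternative fits stayed between -0.74 and -0.54 for Ppargc1a, -0.95 and -0.88 for Esrra, -0.39 and -0.31 for Ppard, 0.48 and 0.60 for Pprc1 and 2.38 and 2.79 for Esrrg. A change of scaling moves all genes by nearly the same amount, so closeness between scalings is built into this subtraction. The reference also takes the median gene as unchanged. Without that reference, library totals alone put Ppargc1a at 0.13, Ppara at 0.22 and Ppard at 0.37, while Esrrg and Pprc1 were higher in every fit.

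**Figure D5:**
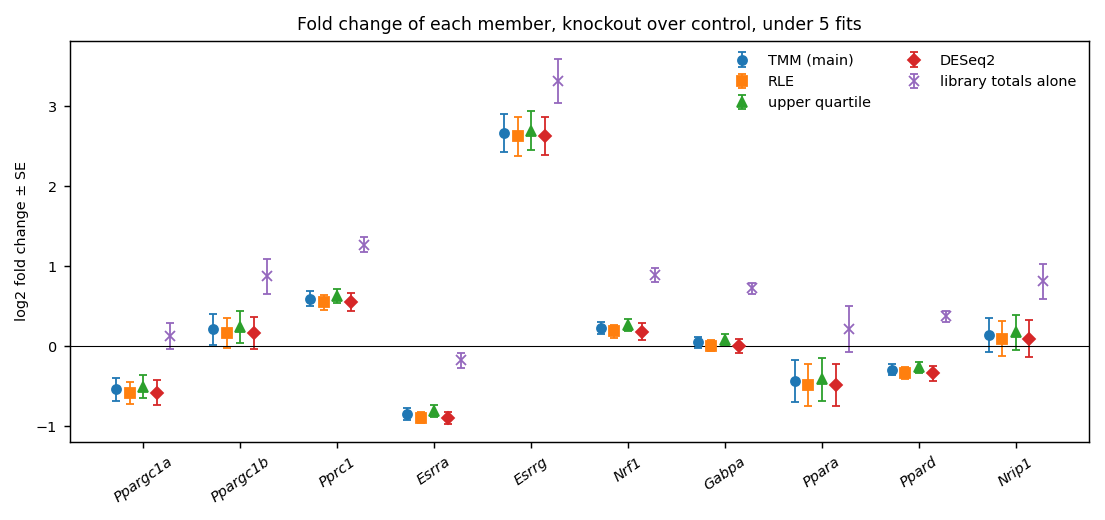
Log2 fold change (knockout over control) ± SE of each member with TMM, RLE and upper-quartile scaling and library totals alone in edgeR, and with DESeq2. The error bars of TMM, RLE, upper quartile and DESeq2 overlap for every member, whereas library totals alone lift all 10, turning Ppargc1a, Ppara and Ppard to above 0.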

How the data were processed

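PolyA RNA of QF muscle from 8 mice was sequenced with a directional kit. Per the study's methods and the submitters' processing notes, the authors trimmed reads (bcl2fastq 2.20.0.422, cutadapt), aligned them with STAR 2.5.4b to GRCm38, counted exon reads per gene without duplicate or multimapping reads (Rsubread), and left out genes under 50 reads (the lowest row total here is 51). The annotation release and the use of strand in counting were not given in the sources used here. The deposited counts are whole reads per gene and were used for all tests. The deposited FPKM values, made by the authors with DESeq2, served only as an alternative for ratios. The table also holds the authors' own DESeq2 1.32.0 results for knockout against control (mean signal, log2 fold change with its standard error and test values, and p-values), which were not used.

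Groups were taken from sample titles. Counts were fitted with edgeR 4.0.16 in R 4.3.3 (glmQLFit and glmQLFTest, TMM scaling, group only) over 14012 genes, with Benjamini-Hochberg adjustment and an adjusted p under 0.01. CPM are TMM-scaled, and RPKM divide CPM by the deposited exon width. Log2 ratios use counts plus 0.5 with an exact two-sided permutation test over all assignments of samples (Python 3.11.15), for which 4 against 4 cannot go below 0.0286. On simulated counts (13990 genes, 200 changed, 4 against 4), the fit recovered 69% of changes of log2 1 and 83% of log2 2, and called 3 unchanged genes. All simulated libraries were drawn from the control proportions, with rises and falls in equal number. They lack the shift in composition of the real libraries, so the scaling was not tested there. At the members' lowest count of 65, precision is set by counting error as well as by mice, and intervals from replicates cover both.

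Alternatives were RLE, upper-quartile and library-total scaling, TMM without the 100 most abundant genes, filterByExpr, DESeq2 1.42.0, an adjusted p under 0.05, a 1.5-fold minimum, a replicate block, an adipocyte marker covariate and each library left out. The members and gene lists were chosen with earlier results of these data known. Named besides the members were Grpel1, 11 textbook partners and targets, and from each list up to 3 genes with the lowest and 3 with the highest log2 fold change among those past the threshold without overlap, of which 1 is not reported here. Of the ERR and PPAR list, 38 of 39 genes were in the table. Markers fixed for each cell type gave, besides those in the text, summed CPM of 39.8 to 99.6 in control and 88.6 to 158 in knockout for macrophages (1 of 7 higher), 1292 to 1819 and 529 to 774 for fibroblasts (3 of 5 lower), 58.6 to 65.0 and 72.2 to 99.1 for satellite cells (2 of 4 higher) and overlapping sums for Schwann cells (0 of 4). The cardiac genes Myh6 and Tnni3 summed to at most 5.63 CPM. No marker in the table was at 0.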

Additional observations from a re-analysis of the deposited data

Results flagged for a closer look

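In 32 groups of 4 values (the CPM of each member and the ratios, in each group), 1 library stood apart by Dixon's criterion. Control 1 had 28.9 CPM of Ppargc1a against 42.2 to 44.7 CPM in the other 3 controls, a gap that is 0.844 of the whole range. Chance gives about 1 such group in 20. Without control 1, the log2 fold change of Ppargc1a was -0.66 (edgeR adjusted p = 5.8e-04).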

How the results depend on the processing

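Library totals alone changed most values, and the median of all genes shifts with them (0.07 to 0.73). They left 0 members lower and 7 higher (3 and 2 with TMM), gave log2 fold changes of 0.13 for Ppargc1a, 0.22 for Ppara and 0.37 for Ppard, and gave 5 lower and 19 higher partners, 11 and 14 signalling genes, 1 and 15 NRF-1 and GABP targets, and 9 and 8 ERR and PPAR targets. A 1.5-fold minimum left 1 member lower, 7 partners lower, 3 signalling genes higher, and 6 lower and 0 higher NRF-1 and GABP targets. An adjusted p under 0.05 gave 7 higher partners. The adipocyte covariate left 1 member lower. Of NRF-1 and GABP targets, 1 rather than 2 was higher with RLE, with DESeq2 and with the replicate block. Leaving out 1 library gave 1 to 2 members lower (1 without control 2, control 3 or knockout 4) and 2 higher, 1 to 2 higher NRF-1 and GABP targets, and log2 fold changes of -0.00097 to 0.087 for Gabpa and -0.012 to 0.33 for Nrip1. Apart from the scaling itself, the cause was not tested. Over the 16 alternative fits of the 10 members, 136 values kept their direction and their side of the threshold, 15 no longer passed it, 4 newly passed it and 5 changed sign. The 3 ratios whose groups did not overlap kept their direction under every alternative, but this is largely built in. Without overlap, leaving out 1 library cannot reverse a difference of means. The other alternatives recompute the same ratios from the same libraries. With libraries paired by number, exact sign flips over 4 pairs cannot go below 0.05, so that they could not decide. The log2 ratio of Ppard to Ppara differed by -0.04 to 0.37 with 1 library left out.

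The labels do not say whether equal replicate numbers pair mice, and the values do not settle it. Same-numbered libraries correlated at 0.17, 0.01, 0.49 and 0.16 in their deviations from the group means. Control 2 correlated best with knockout 1 (0.15) and knockout 2 best with control 4 (0.14). All other libraries correlated best with their own number. The replicate block called 6123 genes in place of 6265 and changed no call of a member. Depth limits Nrip1 and Ppargc1b most, whose lowest counts were 65 and 91.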
